A study of Mus musculus with 6 samples.

Results

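The Hox genes of clusters A to D were followed in ATAC-seq of bone marrow skeletal stem and progenitor cells (SSPCs). The 38 Hox genes analysed were taken by name, 10 each in HoxA and HoxB and 9 each in HoxC and HoxD, of 21853 protein-coding genes in the annotation. ATAC-seq uses a transposase that cuts accessible DNA, so that a called peak marks a stretch of open chromatin. The cells came from marrow of the tibiae and femora of C57BL/6 mice, were plated in flasks and were used at passage one without treatment, and the groups differ only in the label young or middle-aged, with 3 libraries each. The labels speak of at least 3 mice and of no sorting step, and do not say whether each library is a separate animal, so p-values measure the spread between these libraries, which may be technical. A TSS peak is a called peak that reached into the window of 1 kb on both sides of a protein-coding transcription start site (TSS) of the gene, and the region from the lowest to the highest Hox TSS plus 5 kb was taken as the cluster.

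Hox genes encode homeodomain transcription factors that give cells their position along the body axis and along the limb, and they lie in 4 clusters in which the order of the genes follows the order of their domains. Genes in the same place of different clusters are paralogs and share a group number. Groups 9 and 10 act in the upper limb segment, group 11 in the segment that holds the tibia, and group 13 in hand and foot. Adult skeletal cells keep the Hox code of the bone they come from, while blood stem and progenitor cells use mainly HoxA and HoxB genes. Silent Hox clusters are held by Polycomb repressors and active ones by trithorax proteins, and Hox proteins bind DNA together with the TALE cofactors of the Pbx, Meis and Pknox families.

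The number of peaks per list was 35953, 43941 and 27628 for young 1, 2 and 3, against 46364, 46745 and 48344 for middle-aged 1, 2 and 3. Read numbers are not given, and the background solved from the lists, in extended reads per base, was 1.65 in young 3 and between 2.40 and 3.75 in the other libraries. Young 3 thus stood apart with the lowest background and the fewest peaks, and results are given with and without it. Young 1 had the highest background, 3.75, the lowest median fold enrichment, 5.47, and fewer peaks than any middle-aged library. The part of depth in the length of the lists was not tested. A TSS peak was present for 5 of 12 stromal marker genes in young 3 and for 9 or 10 of 12 in the other libraries, with none at Lepr and Prrx1 in any library. Hematopoietic marker genes, among them Ptprc and Spi1, had a TSS peak for 10 to 12 of 12 in every library, and endothelial ones for 2 to 5 of 8, with Tie1, Emcn and Sox17 at none. The part that these cell types play in the Hox results was not tested. In such bulk libraries fewer cells of a type and less open chromatin per cell cannot be told apart.

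Most Hox genes had no TSS peak in these cells. A TSS peak in 1 or more libraries was found for 13 of the 38 genes (34.2%), against 61.5% of all protein-coding genes. A TSS peak in all 6 libraries was found for 4 Hox genes (10.5%), Hoxa4, Hoxa7, Hoxb4 and Hoxc13, against 48.4% of all protein-coding genes. Any protein-coding start site of a gene counted. The Hoxa7 peaks lay more than 1 kb from its principal start site, the main one in the annotation. The 25 genes with none in any library were Hoxa2, Hoxa6, Hoxa9 and Hoxa11 in HoxA, Hoxb1, Hoxb2, Hoxb3, Hoxb5, Hoxb6, Hoxb7, Hoxb8, Hoxb9 and Hoxb13 in HoxB, Hoxc4, Hoxc6, Hoxc8, Hoxc9, Hoxc11 and Hoxc12 in HoxC, and Hoxd1, Hoxd4, Hoxd10, Hoxd11, Hoxd12 and Hoxd13 in HoxD. By cluster, 6 of 10 HoxA genes, 1 of 10 HoxB genes, 3 of 9 HoxC genes and 3 of 9 HoxD genes had a TSS peak somewhere, and no HoxD gene had one in every library. No peak was the TSS peak of more than 1 Hox gene. All these are counts of called peaks, and a missing call means that no peak passed the authors' threshold at the depth of that library.

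**Figure D1:**
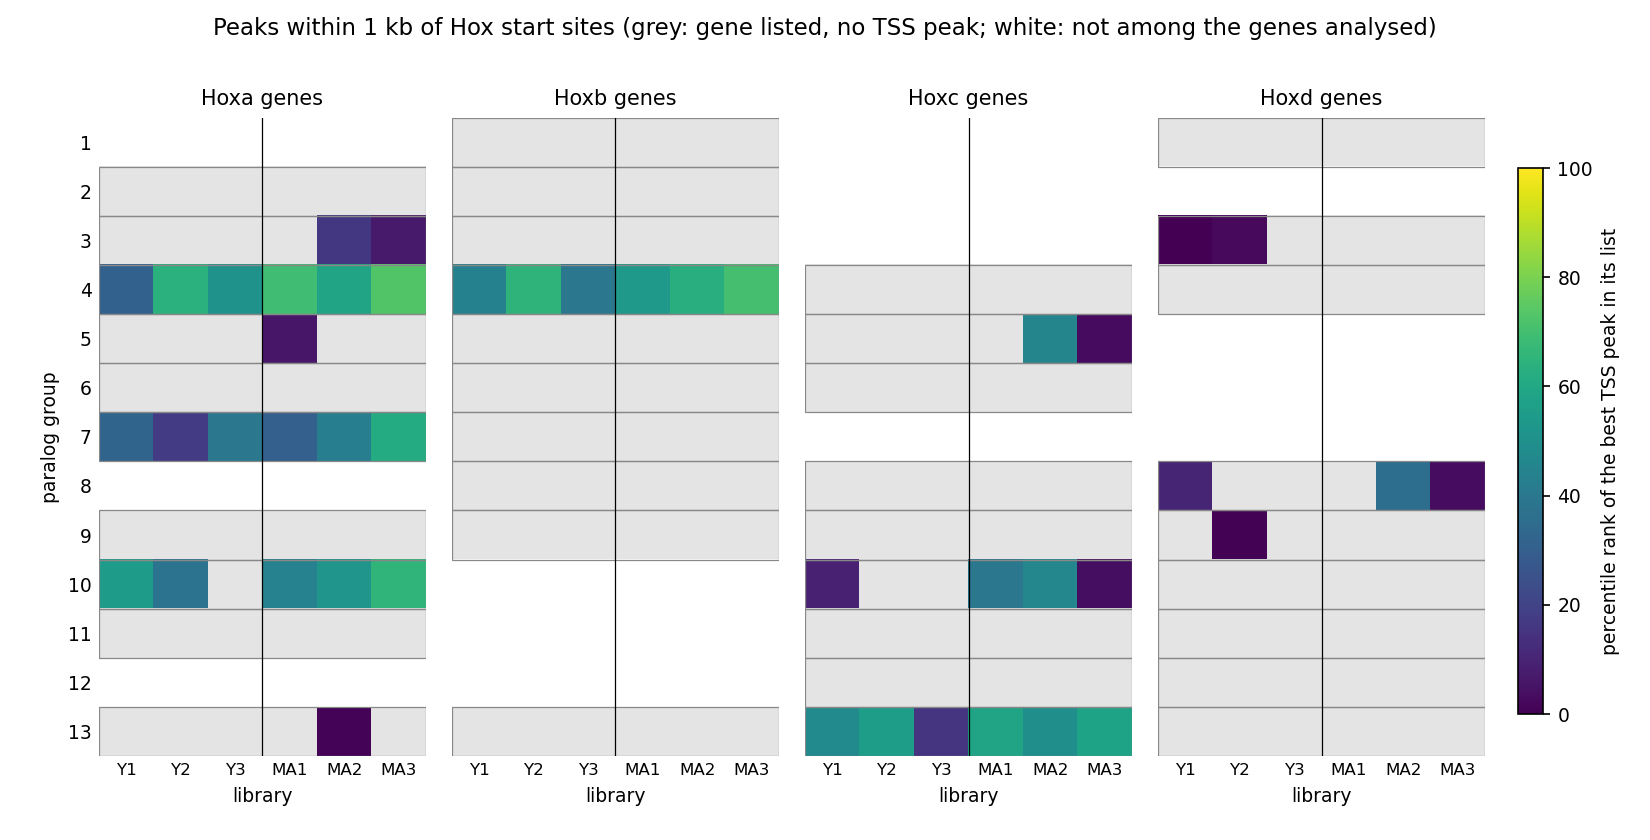
Percentile rank by −log10 q of the best TSS peak of each Hox gene within its own list, with paralog groups as rows, libraries as columns (Y, young; MA, middle-aged) and 1 panel per cluster; 100 is the strongest peak. Grey cells had no TSS peak and white cells hold no gene analysed. Coloured rows run through all 6 libraries only for Hoxa4, Hoxa7, Hoxb4 and Hoxc13, and the highest rank is 73.0, of Hoxa4 in middle-aged 3.

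The 2 group 4 genes Hoxa4 and Hoxb4, which help to set the neck and upper trunk, had the highest mean percentile ranks among the Hox genes with a TSS peak in all libraries, though not the highest rank in each library. The Hoxa4 peak belonged to region A2 (chr6:52191777-52192205), whose summit lay at −206 bp from the Hoxa4 start site on chromosome 6, minus strand, negative distances being upstream. The annotation also places it in introns of Hoxa3 and of the antisense gene Hoxaas3. Its fold enrichment, the pileup of reads at the summit over the local background with 1 added to each, was 4.84, 8.07 and 7.25 in young 1, 2 and 3 against 8.97, 7.34 and 9.13 in middle-aged 1, 2 and 3. The means were 6.72 ± 1.68 (SD, n = 3) and 8.48 ± 0.992 (SD, n = 3), and the groups overlapped, since young 2 stood above middle-aged 2. Young 1 was the low value of its group. On the log2 scale after quantile normalization across libraries, middle-aged minus young was 0.13 (95% interval −0.24 to 0.49, limma, adjusted p = 0.889 over 22403 regions; exact permutation test, two-sided p = 0.5).

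Hoxb4, a gene long used to expand blood stem cells, was the only HoxB gene with a TSS peak. Its region B4 (chr11:96318326-96319059) had its summit at 343 bp from the start site, in a UTR of Hoxb4. The fold enrichment was 4.93, 7.20 and 6.01 in young 1, 2 and 3 against 5.97, 7.02 and 8.10 in middle-aged 1, 2 and 3. The means of 6.05 ± 1.13 (SD, n = 3) and 7.03 ± 1.07 (SD, n = 3) differed by less than the spread, and the groups overlapped. The normalized log2 difference was 0.017 (95% interval −0.29 to 0.33, limma, adjusted p = 0.988; exact permutation test, two-sided p = 1). The paralogs of these genes, Hoxc4 and Hoxd4, had no TSS peak, so that group 4 had one in 12 of its 24 pairs of gene and library.

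Hoxa7, a central trunk gene also active in blood progenitors, also had a TSS peak in every library. Region A6 (chr6:52221665-52222001) had its summit at 50 bp from a Hoxa7 start site other than the principal one, in a UTR. Its fold enrichment was 4.48, 4.1 and 6.01 in young 1, 2 and 3 against 4.75, 5.14 and 6.19 in middle-aged 1, 2 and 3. The highest value of each group was close to that of the other, and the groups overlapped. The normalized log2 difference was −0.042 (95% interval −0.43 to 0.35, limma, adjusted p = 0.973; exact permutation test, two-sided p = 0.9).

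Hoxc13, known for hair and nail formation, lies at the far end of its cluster and was the 1 gene of group 13 with a TSS peak in all libraries. Region C1 (chr15:102920575-102921106) had its summit at −176 bp from the start site, between genes. This is the summit in middle-aged 1, the library with the highest percentile rank there. In the other libraries the summit lay further upstream, from 102920723 in middle-aged 3 to 102920796 in young 1. The fold enrichment was 5.34, 6.59 and 4.97 in young 1, 2 and 3 against 6.78, 6.10 and 6.48 in middle-aged 1, 2 and 3. Young 2 lay inside the range of the middle-aged libraries, and young 3 was lowest. The normalized log2 difference was 0.0099 (95% interval −0.26 to 0.28, limma, adjusted p = 0.993; exact permutation test, two-sided p = 0.9).

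None of these peaks was strong for a start site. Among the best TSS peaks of all genes of the same library, the Hoxa4 peak had percentile ranks from 10.4 to 29.7, the Hoxb4 peak from 15.3 to 27.4, the Hoxa7 peak from 5.17 to 19.99 and the Hoxc13 peak from 5.24 to 20.04. At the summits of Hox TSS peaks the solved pileup was 11 to 39 extended reads, and in young 3 it was 14 to 19.

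The sequences at the summits of the strongest regions are shown for the motifs they hold, as the plus strand of mm10 around the summit, read from the RefSeq assembly GRCm38. Capitals mark the E-box CACGTG, the CCAAT box (CCAAT or ATTGG) and, further on, the AP-1 motif TGANTCA. A2 and C8 are the strongest regions of HoxA and HoxC found in all libraries, and C1, chosen after its values were seen, is at Hoxc13. The C1 sequence is centred on the summit in middle-aged 1.
A2 at Hoxa4, chr6:52191899-52192019: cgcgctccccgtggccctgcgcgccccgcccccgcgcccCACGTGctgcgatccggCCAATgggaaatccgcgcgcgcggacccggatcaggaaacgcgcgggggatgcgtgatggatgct
C1 at Hoxc13, chr15:102920867-102920987: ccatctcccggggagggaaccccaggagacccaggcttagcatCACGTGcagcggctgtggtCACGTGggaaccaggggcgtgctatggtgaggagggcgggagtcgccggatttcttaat
C8 in a Hoxc6 intron, chr15:102999303-102999423: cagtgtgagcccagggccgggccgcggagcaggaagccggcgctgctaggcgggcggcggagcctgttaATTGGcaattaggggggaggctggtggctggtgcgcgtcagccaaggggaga

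The E-box, the site of factors such as Usf1 and Myc, was found within 100 bp of the summit in 3 of the 31 merged regions of the clusters (9.68%), A2, B4 and C1, against 4.27% of all 63840 merged regions. These 3 are regions called in all 6 libraries. At C1 the count rests on the summit in middle-aged 1, and the summits of the other libraries lay outside the printed sequence. The CCAAT box, the site of NF-Y, was found in 9 of 31 (29.0%), against 23.3% of all regions. Both motifs were added after the sequences were seen. Of the motifs chosen earlier, AP-1 (TGANTCA) was found in 2 of 31 (6.45%), A1 among them, against 15.9%. The MEIS motif TGACAG was found only in B4, 1 of 31 (3.23%), against 15.04%. The HOX-PBX motif TGATTNAT was in 0 of 31 against 2.39%, and the CTCF core in 0 of 31 against 2.42%. Both strands were read. The cluster regions were richer in G and C, with a median of 60.7% over the window of 201 bp against 51.2% for all regions, and the part of this in the motif shares was not tested.

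Of the 14 genes in the limb groups 9, 10, 11 and 13, 5 (35.7%) had a TSS peak in some library, close to the 34.2% of all Hox genes, and 17 of their 84 pairs of gene and library had one, beside 45 of 228 for all Hox genes. In group 9, Hoxa9, Hoxb9 and Hoxc9 had no TSS peak, and Hoxd9 had a single weak one in young 2, with a fold enrichment of 3.37 and a percentile rank of 0.480. All 3 genes of group 11, Hoxa11, Hoxc11 and Hoxd11, which shape the bones of the tibial segment, had none. In group 13, Hoxa13 had a peak only in middle-aged 2, with a fold enrichment of 3.53 and a percentile rank of 0.957. Hoxb13 and Hoxd13 had none, and Hoxc13 had one in all libraries, as described above.

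Group 10, which shapes the femur and the lumbar spine, had TSS peaks at Hoxa10 and Hoxc10. Hoxa10 had a TSS peak in 5 libraries, all but young 3, with a fold enrichment of 5.94 and 5.42 in young 1 and 2 and of 5.98, 6.25 and 7.32 in middle-aged 1, 2 and 3. Both young values lay below the middle-aged ones, young 1 by little, but by percentile rank young 1 (55.2) stood above middle-aged 1 (44.5) and middle-aged 2 (52.2). After quantile normalization without young 3, the log2 difference of its main region was −0.014 (95% interval −0.38 to 0.35, limma, adjusted p = 0.992). Its main region A8 (chr6:52240410-52240914) had its summit in a UTR, at 293 bp from the more upstream Hoxa10 start site, which is not a principal one. Hoxc10, a gene of hindlimb and trunk, had a TSS peak in young 1 and in all 3 middle-aged libraries, with a fold enrichment of 3.73 in young 1 and 5, 5.49 and 3.21 in middle-aged 1, 2 and 3. The lowest and the highest value were both middle-aged. Hoxd10 had none, and group 10 as a whole had a TSS peak in 9 of 18 pairs of gene and library.

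The comparison of age groups asked whether Hox start sites were called more often in middle-aged SSPCs. A TSS peak was present for 8, 7 and 4 Hox genes in young 1, 2 and 3 and for 7, 10 and 9 in middle-aged 1, 2 and 3. Young libraries averaged 6.33 ± 2.08 Hox genes (SD, n = 3) and middle-aged ones 8.67 ± 1.53 (SD, n = 3), with overlapping ranges. The difference of 2.33 genes fell to 1.17 without young 3 and to 1.00 when every list was cut to its 27628 best peaks. As shares, these means were 16.7% and 22.8% of the Hox genes, beside 53.6% and 57.6% of all protein-coding genes. HoxA had 3, 3 and 2 such genes in young 1, 2 and 3 against 4, 5 and 4 in middle-aged 1, 2 and 3, and HoxC 2, 1 and 1 against 2, 3 and 3. HoxD ran the other way where young 3 is set aside, with 2, 2 and 0 against 0, 1 and 1, and HoxB had only Hoxb4 throughout.

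**Figure D2:**
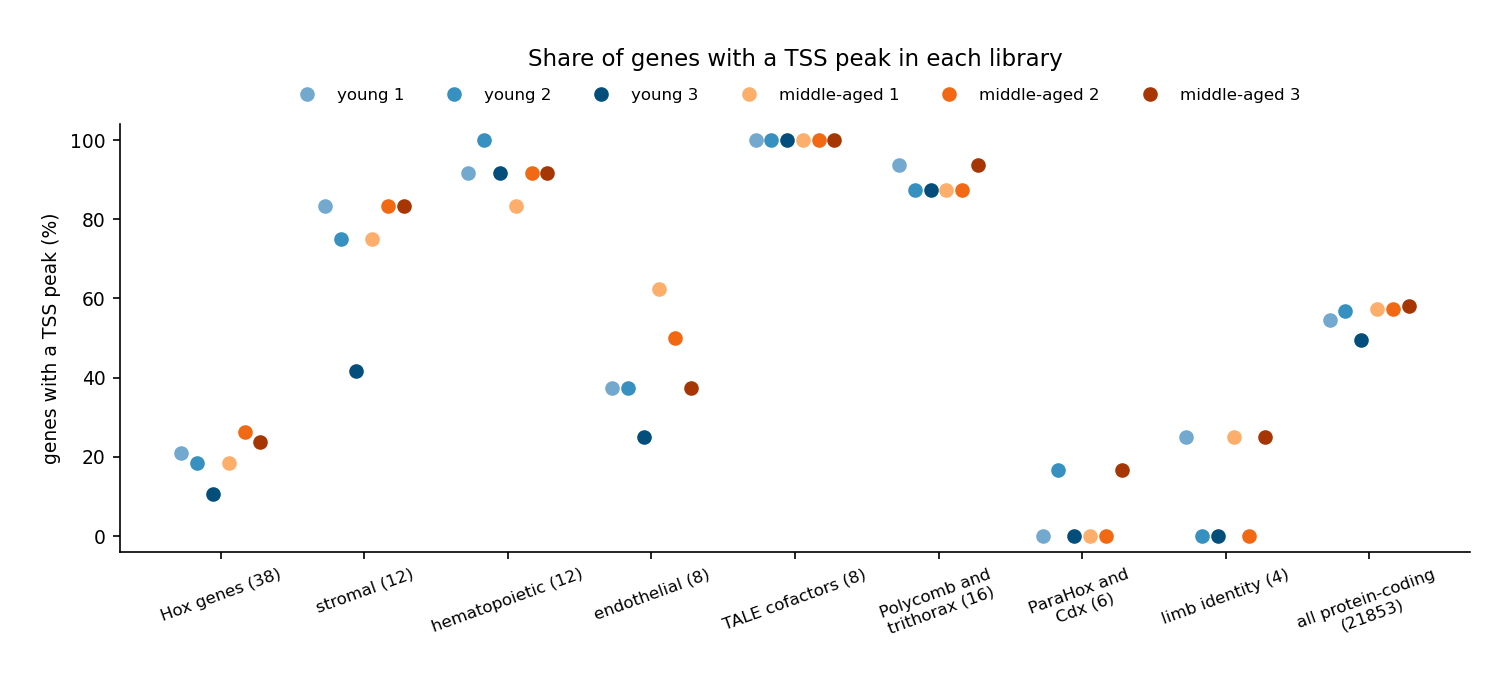
Percentage of genes with a TSS peak in each library, for the Hox genes, the marker and regulator lists and all protein-coding genes (gene numbers in brackets); each point is 1 library. Hox genes run from 10.5% in young 3 to 26.3% in middle-aged 2, below all protein-coding genes in every library, while TALE cofactors are at 100%.

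Among the members, 3 genes showed a TSS peak in more middle-aged than young libraries by 2 or more, Hoxa3, Hoxc5 and Hoxc10, and 2.78% of all protein-coding genes did so. Hoxd3 alone went the other way, as 0.11% of all protein-coding genes did. Genes called in 0 or in all 6 libraries cannot differ in this way. They were 65.8% and 10.5% of the Hox genes, against 38.5% and 48.4% of all protein-coding genes. The shares over all genes are thus not a like-for-like background for genes called in only some libraries. Hoxa3, which patterns thymus and parathyroid, had a TSS peak only in middle-aged 2 and 3, with fold enrichments of 4.08 and 3.52 in region A5. Region A4, at 1387 bp from the same Hoxa3 start site and so outside the window, was called in young 1 and 2 and in every middle-aged library. With a TSS window of 2000 bp the Hoxa3 difference was 1 library, as it was with a −log10 q of at least 5. Hoxc5, a gene of the neck and shoulder level, had one in the same 2 libraries, with 5.51 and 3.46 in region C9. Hoxd3, which shapes the first neck vertebra, had a peak in young 1 with 2.95 and in young 2 with 3.65, at 2 different start sites (D7 and D5). Their percentile ranks were low, at most 16.1 for Hoxa3, 2.47 for Hoxd3 and 45.5 for Hoxc5, so most of these peaks were near the end of their lists. The ranks of Hoxc10 were 9.17 in young 1 and 39.6, 46.2 and 3.68 in middle-aged 1, 2 and 3, and its difference of 2 libraries was unchanged with a −log10 q of at least 5. With equally long lists the difference was 0 libraries for Hoxa3 and Hoxd3 and 1 library for Hoxc5 and Hoxc10. The middle-aged lists were longer in general, and the part of list length in these calls is given only by that value.

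Hoxd8, Hoxa5 and Hoxd9 completed the list. Hoxd8 had a TSS peak in young 1 with a fold enrichment of 3.97 and in middle-aged 2 and 3 with 5.41 and 3.51. Hoxa5, which is needed for lung development, had one in middle-aged 1 with 3.95. Hoxd9 was described above.

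The whole clusters were examined next, start sites or not. Merging the peaks of all libraries gave 31 regions, 9 in HoxA, 5 in HoxB, 10 in HoxC and 7 in HoxD, over 515 kb in all. Of these, 5 (16.1%) were called in all 6 libraries, against 35.1% of all merged regions, and 14 (45.2%) in a single library, against 23.0%. A Hox TSS lay within 1 kb of 16 of the 31. The summits lay between genes for 9 regions, in introns for 8, in UTRs for 8, in coding exons for 3 and in other exons for 3. No region was called in all 3 middle-aged and no young libraries, beside 2.21% of all merged regions, and none in all 3 young and no middle-aged ones, beside 0.036%.

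**Figure D3:**
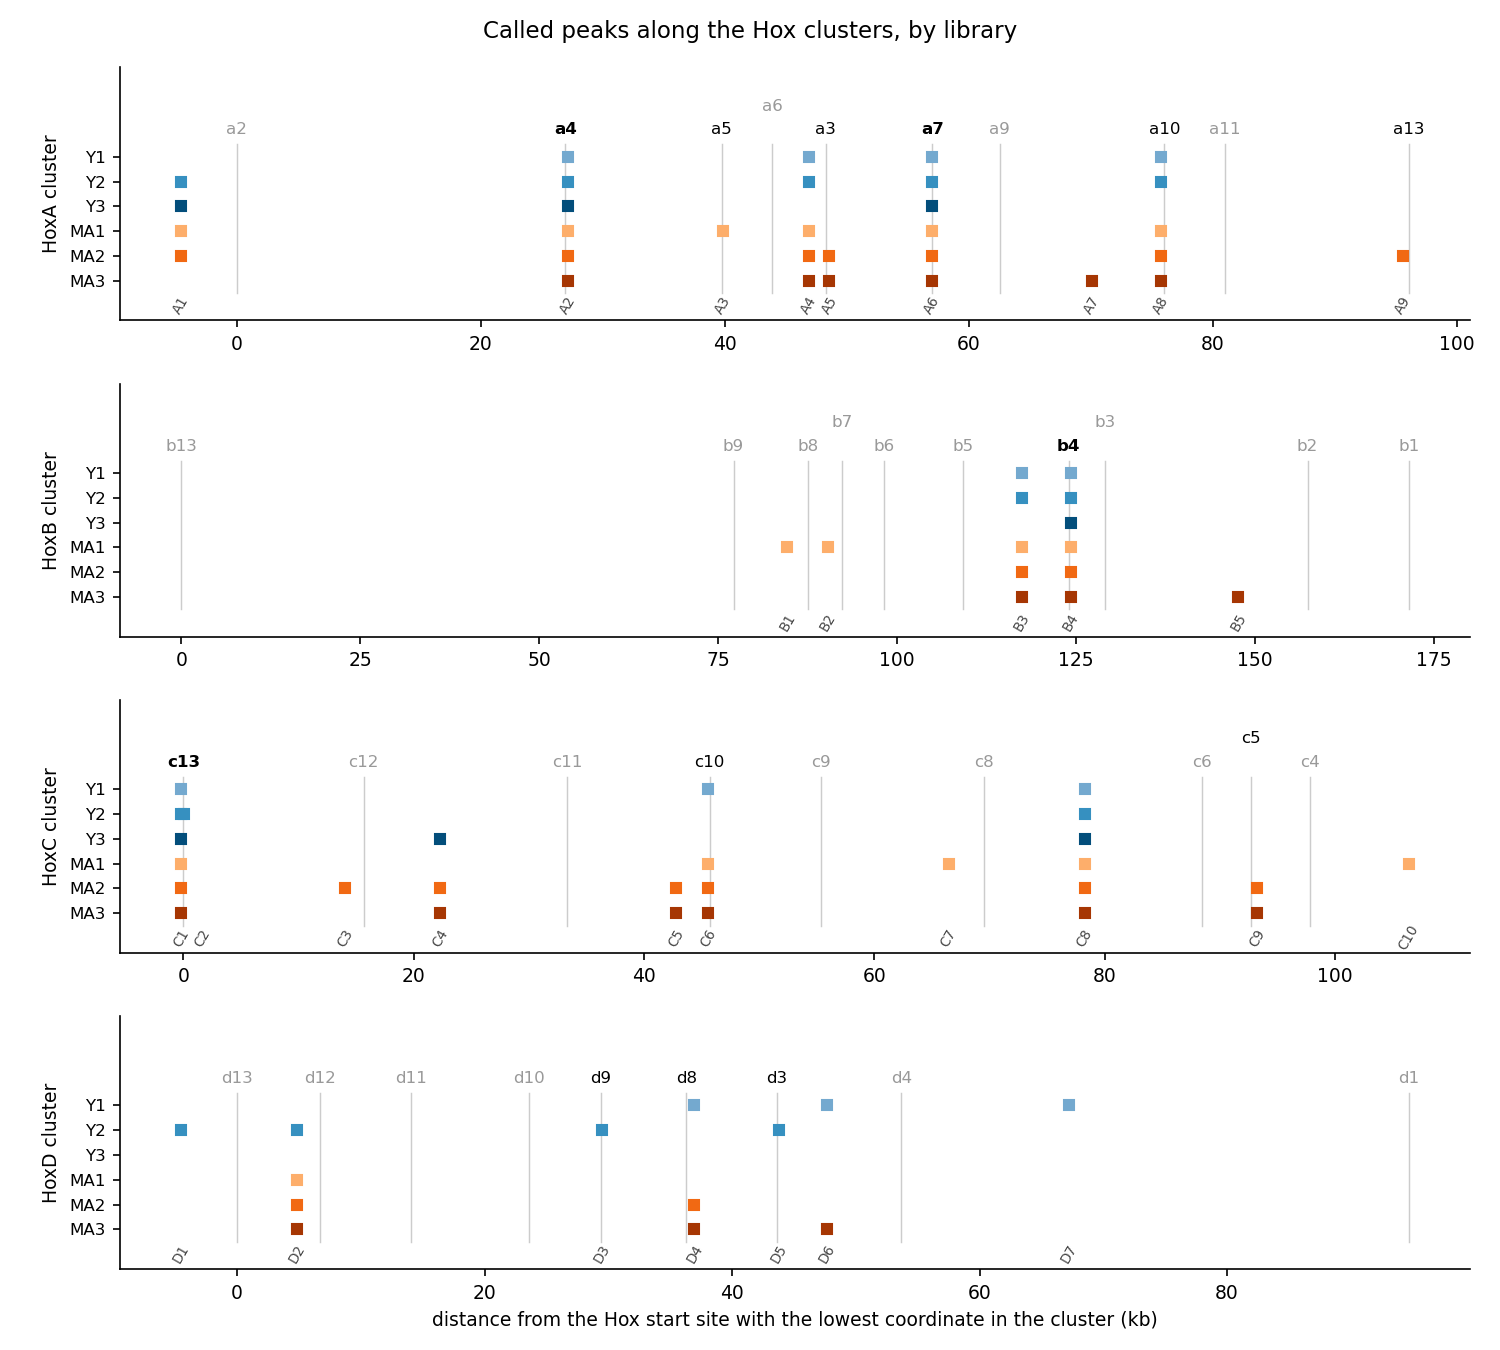
Called peaks along each Hox cluster, in kb from the Hox start site with the lowest coordinate; each square marks, at the summit of its merged region, a library with a peak there. Grey lines are Hox start sites, the most upstream one of each gene, with names in bold for a TSS peak in all 6 libraries and in grey for none. The 5 full columns are A2, A6, B4, C1 and C8, and most of HoxB, from Hoxb13 to Hoxb9 and from Hoxb2 to Hoxb1, is empty.

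Of the regions found in all 6 libraries, C8 (chr15:102999105-102999589) was the only one away from a coding Hox start site. It lay in introns of Hoxc6 and Hoxc5, between the start sites of Hoxc8 and Hoxc6. Its fold enrichment was 5.35, 5.17 and 4.76 in young 1, 2 and 3 against 4.86, 7.60 and 6.66 in middle-aged 1, 2 and 3. Middle-aged 1 fell among the young values and the other 2 above them. The normalized log2 difference was 0.12 (95% interval −0.24 to 0.48, limma, adjusted p = 0.894).

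Other regions away from coding Hox start sites recurred as well. B3, between genes in HoxB, was called in all libraries but young 3, with fold enrichments of 4.34 and 5.64 in young 1 and 2 against 5.13, 5.19 and 5.31 in middle-aged 1, 2 and 3. The middle-aged values lay between the 2 young ones. A4 (chr6:52211586-52211872), between the start sites of Hoxa6 and Hoxa7, was missing in young 3 too, with 4.32 and 5 in young 1 and 2 against 4.62, 5.12 and 6.37 in middle-aged 1, 2 and 3. D2 (chr2:74672902-74673312), at −1863 bp from the Hoxd12 start site, was called in young 2 with 4.19 and in middle-aged 1, 2 and 3 with 5.45, 5.61 and 6.30. It was the HoxD region found in most libraries. A1 (chr6:52160106-52160479), in an intron of the noncoding gene Hotairm1, was called in young 2 and 3 with 4.64 and 5.08, and in middle-aged 1 and 2 with 4.44 and 4.55. Most of these heights were below the median fold enrichment of a list, which averaged 6.02 over young and 5.99 over middle-aged libraries.

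The intergenic sequence at D2 and the intron sequence at A1 are given as places outside coding Hox start sites. Both came back in at least 4 libraries and were chosen after their values were seen. They are again the plus strand of mm10 around the summit with the same capitals.
D2 in HoxD, chr2:74673090-74673210: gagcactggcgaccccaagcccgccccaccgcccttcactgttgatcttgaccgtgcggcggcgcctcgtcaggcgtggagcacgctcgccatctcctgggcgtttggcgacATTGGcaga
A1 in HoxA, chr6:52160232-52160352: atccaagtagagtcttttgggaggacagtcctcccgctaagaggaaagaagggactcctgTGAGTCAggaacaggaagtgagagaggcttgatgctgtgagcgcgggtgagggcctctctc

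The 14 regions of a single library had percentile ranks from 0.0681 for D7 to 44.7 for C7. Of 5 found in 1 young library, 4 were in HoxD, and of 9 found in 1 middle-aged library, 3 each were in HoxA, HoxB and HoxC and 0 in HoxD. Of all single-library regions of the genome, 3748 were young and 10945 middle-aged. These are few peaks per cluster, and the split was not tested.

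The number of peaks in the clusters followed the same lines. HoxA had 4, 5 and 3 peaks in young 1, 2 and 3 against 6, 7 and 6 in middle-aged 1, 2 and 3, and HoxC 3, 3 and 3 against 5, 7 and 6, so that the groups did not overlap in either cluster. How often groups do not overlap in other stretches of the genome was not counted. Single clusters were not counted in equally long lists. HoxB had 3, 2 and 1 against 4, 3 and 3, with young 1 at the level of middle-aged 2 and 3. HoxD had 3, 4 and 0 against 1, 2 and 3, with young 1 and 2 at or above every middle-aged library and young 3 at 0. The ratio of the means, middle-aged over young, was 1.58 in HoxA, 1.67 in HoxB, 2.00 in HoxC and 0.857 in HoxD, and without young 3 it was 1.41, 1.33, 2.00 and 0.571. All clusters together averaged 11.3 ± 3.79 peaks (SD, n = 3) for young and 17.7 ± 1.53 peaks (SD, n = 3) for middle-aged libraries, which is a ratio of 1.56, beside 1.32 for all peaks of the lists, whose groups did not overlap either. Without young 3 these ratios were 1.31 and 1.18, and with equally long lists the cluster ratio was 1.00. Their peaks spanned 3242 ± 1154 bp (SD, n = 3) against 5264 ± 692 bp (SD, n = 3), which is a ratio of 1.62 beside 1.33 for the genome, and 1.17 with equally long lists.

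For their length the clusters were not poor in peaks. They held 2.20 peaks per 100 kb on average in young and 3.43 in middle-aged libraries, beside 1.31 and 1.73 over the assembled chromosomes, of which they are a gene-dense part. Peaks covered 0.629% and 1.02% of the clusters and 0.494% and 0.657% of the chromosomes.

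The height of the peaks was compared for regions called in every library, since only these have a value in each list. Of 22403 such regions in the genome, 0 passed an adjusted p of 0.05 (0% called; limma on quantile-normalized log2 fold enrichment, no other tool was run over all regions) and 1679 (7.49%) had an unadjusted p under 0.05. Of the 5 Hox regions 0 were called and 0 had an unadjusted p under 0.05, with adjusted p from 0.889 to 0.993. The median log2 difference, middle-aged minus young, was 0.017 over the 5 regions and −0.0022 over all regions tested. Without young 3 it was 0.026 over the 8 Hox regions then called in every library, with 0 called. Quantile normalization gives every library the same set of heights. A shift shared by all regions is thus removed before the test, from the Hox regions too, and cannot show in these values. By mean percentile rank the 5 regions stood low among those of the genome called in every library, at the percentiles 31.7 for A2, 29.0 for B4, 18.2 for C8, 17.7 for C1 and 7.87 for A6.

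**Figure D4:**
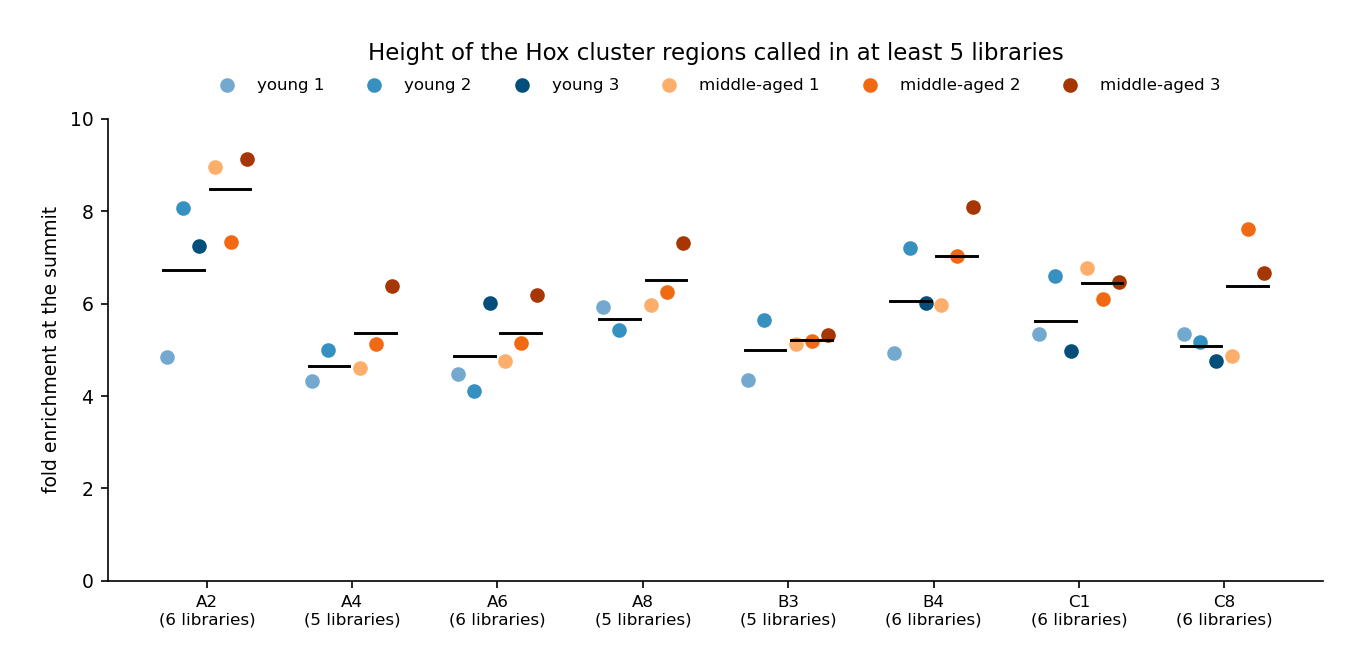
Fold enrichment at the summit of the Hox cluster regions called in at least 5 libraries, 1 point per library, with black lines at the mean of the young (left) and middle-aged (right) libraries that have a peak. A4, A8 and B3 lack a point for young 3. The groups overlap in A2, A4, A6, B3, B4, C1 and C8, and in A8 the young values of 5.94 and 5.42 lie just under 5.98, the lowest of the middle-aged ones, before any scaling between lists. The normalized log2 difference in A8 without young 3 was −0.014.

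CpG content was compared because start sites rich in CpG are commonly open in any cell, and Hox clusters are rich in CpG. The observed over expected CpG ratio within 1 kb of the most upstream principal start site had a median of 0.608 in Hox genes and 0.482 in all protein-coding genes. TSS peaks were counted at any coding start site, also where it is not principal, as for Hoxa7. Of 6702 CpG-rich genes in the genome, those with a ratio of at least 0.6 and a GC content of at least 50%, 94.2% had a TSS peak in at least 1 library and 81.1% in all 6. Of the 20 CpG-rich Hox genes 10 (50%) had one in at least 1 library and 20% in all 6. The 10 CpG-rich Hox genes without a TSS peak were Hoxa11, Hoxb5, Hoxb7, Hoxb9, Hoxc11, Hoxc12, Hoxd1, Hoxd10, Hoxd11 and Hoxd13. Hoxd11 had a ratio of 0.853, Hoxd13 of 0.840 and Hoxa11 of 0.799, close to 0.867 at Hoxa4. Within the Hox genes the ratio was higher where a TSS peak was found, with a median of 0.694 against 0.549 where none was. These shares describe the genes and were given no test, and Hox genes of a cluster share their surroundings.

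**Figure D5:**
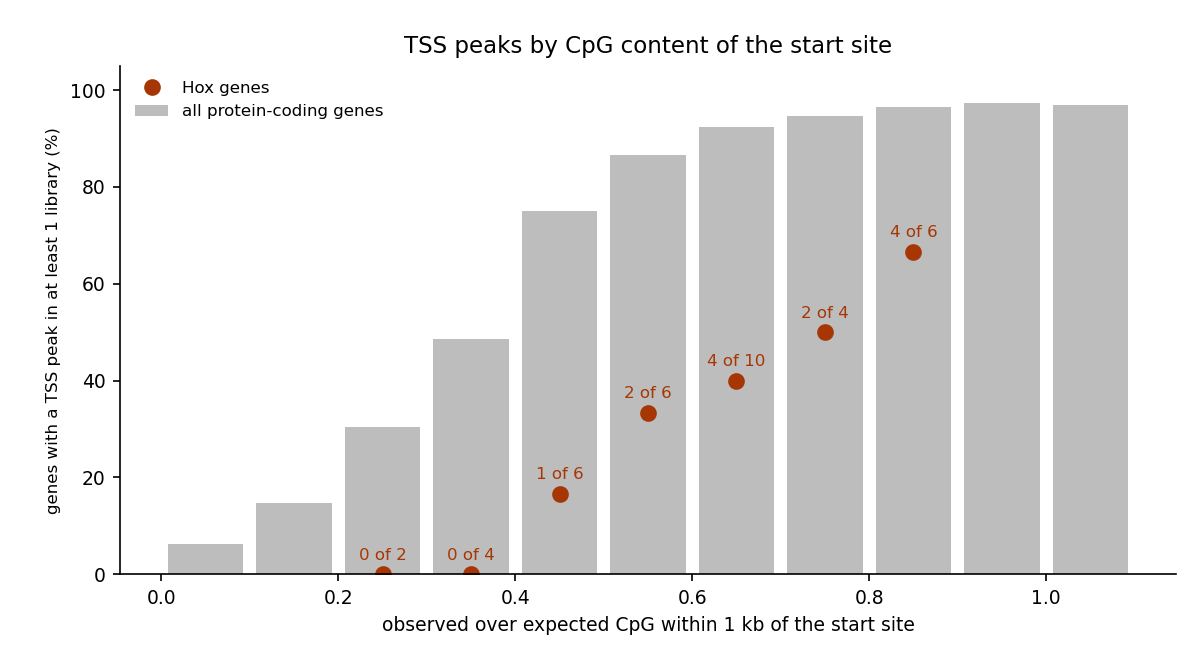
Percentage of genes that showed a TSS peak in 1 or more libraries, by the observed over expected CpG ratio of the start site, in bins of 0.1, for all protein-coding genes (bars; bins up to 1.1) and Hox genes (points, with counts). Hox genes lie under the bar in every bin, with 4 of 10 at ratios of 0.6 to 0.7 beside 92.3% of all genes.

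Genes for proteins that work with or on the Hox genes are given beside the 48.4% of all protein-coding genes, and the 81.1% of CpG-rich ones, with a TSS peak in all libraries. The 8 TALE cofactors examined, Pbx2, Pbx3, Pbx4, Meis1, Meis2, Meis3, Pknox1 and Pknox2, had a TSS peak in every library. Of 16 Polycomb and trithorax genes, 14 had one in all 6, among them Ezh2 and Suz12 of the complex that writes the repressive mark and Kmt2a, which keeps Hox genes active. Pcgf2 had one in 2 libraries, and Kdm6b, which removes the repressive mark, had none. Evx1 and Evx2, the homeobox genes beside HoxA and HoxD, had none. Of the 6 ParaHox and Cdx genes, relatives and regulators of the Hox genes, Gsx1 and Pdx1 had a peak in 1 library each and 4 had none. Of the limb identity genes, Pitx1 and Tbx4 of the hindlimb and Tbx5 of the forelimb had none, and Isl1 had one in 3 libraries.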

How the data were processed

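The series holds 6 ATAC-seq peak lists, 3 of young and 3 of middle-aged SSPCs, grouped by sample title. Per the methods, the authors aligned reads to mm10 with Bowtie2, removed duplicates with Sambamba and called peaks with MACS in each library. The submitters' processing notes name bcl2fastq. Whether reads were shifted for the transposase is not given in the sources used here. The deposited score is a whole-number form of −log10 q. The deposited fold enrichment is a linear ratio over local background, scaled in each list alone. The deposited −log10 p and −log10 q values were used for ranks and filters, and the deposited summit offset gave summit positions.

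Start sites came from the GENCODE annotation of mm10 (54361 protein-coding start sites, 21853 genes), and sequence from RefSeq GRCm38, whose chromosome lengths match. Coordinates count from 1. Peaks were merged at an overlap of at least 1 bp. The summit of a merged region is that of its peak with the highest percentile rank, so it comes from 1 library. Percentile ranks are by −log10 q within a list. Fold enrichment and −log10 p were solved together for pileup and background (100% of peaks, tolerance 0.001). Regions called in all libraries were fitted with limma 3.58.1 in R 4.3.3 on quantile-normalized log2 fold enrichment, with Benjamini-Hochberg adjustment over 22403 regions. Single values were compared by an exact permutation test over 20 assignments, whose smallest p is 0.1, so that none could pass 0.05. The DiffBind comparison of the study needs reads and was not repeated. Read depth is unknown beyond the solved background.

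Members, lists, motifs and tests were chosen with earlier results of these data known. Named genes were those differing by at least 2 libraries between ages, the 2 strongest per cluster among those with a TSS peak in all libraries, all of groups 9, 10, 11 and 13, and, by name, those without a peak. Hoxd8 and Hoxa5 were added so that every member is accounted for. Printed sequences were to be the strongest region per cluster found in all libraries. That of HoxB touches a UTR and is not printed, HoxD has none, and C1, D2 and A1 were added. A listed cofactor gene and the sequence of further regions are not reported here. Alternatives were other TSS windows (500 and 2000 bp), principal or summit-only start sites, a −log10 q of at least 5, equally long lists, other flanks (0 and 20 kb), other scalings and mergings, a replicate block and leaving out each library. Whether equal replicate numbers pair the libraries was checked on deviations from group means. The correlations were 0.0050, 0.012 and −0.028, so the numbers were not taken as pairs.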

Additional observations from a re-analysis of the deposited data

How the results depend on the processing

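The difference in Hox genes with a TSS peak (2.33 genes, middle-aged minus young) was 1.17 to 3.17 when 1 library was left out and 0.333 in equally long lists without young replicate 3, a setting chosen after seeing the data. The ratio of cluster peaks (1.56) was 1.31 to 1.77 when 1 library was left out, and the ratio of covered length (1.62) was 1.37 to 1.95. With equally long lists these 2 ratios were 1.00 and 1.17, where the setting itself removes more peaks from the middle-aged lists than from the young ones. The other windows, start sites, flanks and the −log10 q limit, where run, left these 3 results higher in middle-aged libraries. Of these, the TSS window of 2000 bp moved the gene difference most, to 4. No Hox region passed an adjusted p of 0.05 under any of the alternatives run. The median log2 difference over Hox regions in all libraries (0.017) was −0.012 with median centring and −0.038 to 0.078 when 1 library was left out. For single genes, leaving out 1 library gave −0.042 to 0.23 at Hoxa4, −0.21 to 0.13 at Hoxa7, −0.088 to 0.12 at Hoxb4 and −0.089 to 0.067 at Hoxc13. Median centring gave −0.012 at Hoxb4 and −0.029 at Hoxc13, and by percentile rank, taken in lists of different lengths, Hoxa4, Hoxc13, Hoxa7 and Hoxb4 were 18.4, 15.98, 15.03 and 12.99 points higher in middle-aged libraries. The cause of these sign changes was not tested. The equal replicate numbers share only a number: as a replicate block they gave a difference of 2.33 genes, 0 called Hox regions and a median of 0.017. The lists end at their own thresholds, and the part of depth in calls of weak start sites such as those of Hoxa3, Hoxd3, Hoxd9 and Hoxa13 was not tested.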

Other observations

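The Hox clusters also hold 45 noncoding genes by the annotation, of which 6 had a peak within 1 kb of a start site in at least 1 library and 0 in all 6. The share over all noncoding genes of the genome was not computed, so these counts cannot be read as a trait of the clusters. Hoxd3os1, which runs antisense to Hoxd3, had one in young 1, young 2 and middle-aged 3. Gm27861, a small RNA gene beside region A1, had one in young 2 and 3 and in middle-aged 1 and 2. Mir615, which lies within Hoxc5, had one in middle-aged 2 and 3, the libraries with a Hoxc5 TSS peak. Gm28793 had one in young 2, Gm27280 in middle-aged 2 and Gm11536 in middle-aged 3. These start sites lie close to Hox start sites or regions named in the report, so the peaks are not separate evidence.

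The microRNA genes Mir10a, Mir10b, Mir196a-1, Mir196a-2 and Mir196b, whose products target Hox messages, had no such peak in any library. Only the annotated start of each gene was examined, and not the start of any longer transcript that holds it. The long noncoding RNA genes Hotair, Hottip, Haglr and Hoxa11os had none either. Of the 7 microRNA genes, 1 had a peak, of the 8 antisense genes 3, and of the 6 lincRNA genes 0. Genes of these types elsewhere in the genome were not counted.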
